A study of Homo sapiens with 12 samples.

Results

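Among 6 RNA-seq libraries of TMD8 cells carrying a short hairpin RNA (shRNA) against IRF4, 3 kept more IRF4 messenger RNA than the other 3, and the milder and the deeper knockdown were compared gene by gene. The libraries were divided by the first number in their library names. The 3 with number 2 are called set 2 (milder) and the 3 with number 1 set 1 (deeper), and no control library entered the test. The series holds 12 libraries in all. The other 6 carry a scramble shRNA, which has no intended target, with 3 libraries under each number. TMD8 is an established human lymphoma line of the ABC (activated B cell) class of diffuse large B cell tumours. All 12 titles name TMD8, although a cell line field of the labels numbers the line upward from sample to sample. The cells were pelleted at 24 h, and the libraries were made from polyadenylated RNA with a stranded kit and read as pairs of 100 bp. The labels do not say whether the number stands for a hairpin, a culture or a batch. They name no hairpin sequence, vector or selection. Nothing says that the libraries of a set are separate cultures, so the spread behind every p-value here is that between libraries and may be technical.

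IRF4 is a transcription factor of the interferon regulatory factor (IRF) family. It binds DNA alone at repeats of the GAAA core or beside ETS and AP-1 family partners, and in B cells it drives class switching, plasma cell differentiation and the NF-kB dependent programme of ABC lymphoma. At high levels it acts with BLIMP1 (PRDM1) and XBP1 in secretory cells, and it restrains parts of the germinal centre and interferon programmes.

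IRF4 itself, on chromosome 6 from 391752 to 411443 (hg38), was measured at 528, 511 and 525 CPM in set 1 and at 721, 690.3 and 706 CPM in set 2 (CPM, counts per 1000000 counts of a library size scaled by the trimmed mean of M values). Every library of set 2 lay above every library of set 1. The means were 521 ± 9.11 and 706 ± 15.2 CPM (SD, n = 3 each), a 1.35-fold difference. The log2 fold change was 0.44 with SE 0.027 (edgeR adjusted p = 1.64e-09), where positive values are higher in set 2. An exact permutation of the 6 libraries, two-sided, had p = 0.1, which is as low as 3 against 3 can go. The 6 scramble libraries had 1426 to 1554 CPM, so both sets lay well under the controls. In bulk RNA a smaller share of knocked-down cells and a smaller loss per cell cannot be told apart.

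**Figure D1:**
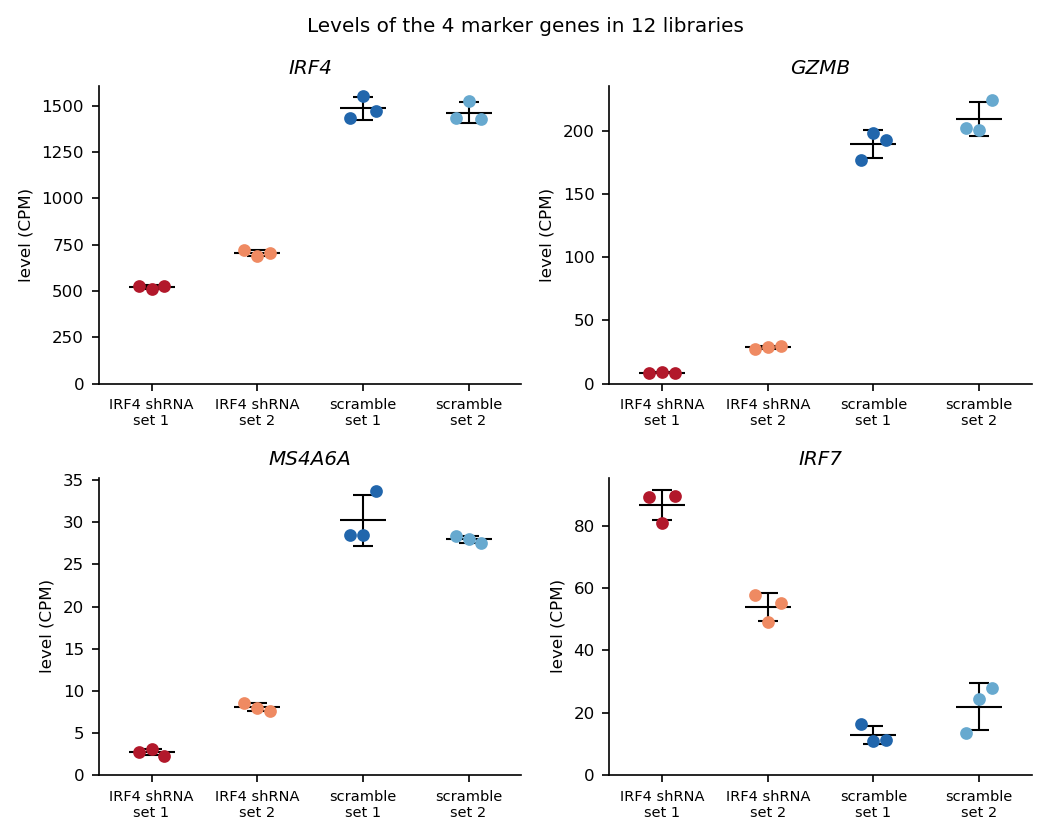
Levels of IRF4, GZMB, MS4A6A and IRF7 in CPM (vertical axes, from 0) in the 3 libraries of each set with IRF4 shRNA or scramble shRNA (points), with the mean (long bar) and SD (whiskers). In each panel the 3 points of IRF4 shRNA set 2 lie apart from those of set 1, and for all 4 genes they lie between set 1 and the scramble libraries.

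The sets differed at many genes, mostly by little. By edgeR's quasi-likelihood test 3812 of 16622 genes tested (22.9%) passed an adjusted p of 0.05, 1563 (9.4%) higher and 2249 (13.5%) lower in set 2, with a median absolute log2 fold change of 0.26 among them. Only 47 of the higher and 162 of the lower genes differed by at least 2-fold. The 3 libraries of a set did not overlap with those of the other in 6107 genes (36.7%). In the scramble libraries the same comparison of set 2 with set 1 called 0 of 16299 genes (0.0%), by edgeR and by DESeq2, with 1906 genes at an unadjusted p under 0.05. It called 2307 when scramble set 2 replicate 1 was left out. Between pairs of libraries of a set, chi-square over its degrees of freedom was 3.35 to 31.9 with scramble and 2.73 to 3.46 with IRF4 shRNA. The scramble libraries thus spread more, and a set difference of the same size was harder to call there.

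The 2 sets also differed in how counts followed the GC content of transcripts. Spearman's rank correlation was taken across genes (no independent replicates). It compared GC with a gene's deviation from its mean over the 6 libraries of the same shRNA. These deviations cancel over the 6 libraries, so the mean trend of either set mirrors that of the other. With IRF4 shRNA the correlation was 0.24 to 0.31 in the libraries of set 1 and -0.32 to -0.19 in those of set 2. Among the scramble libraries it ran from -0.50 to -0.052 in set 1 and was -0.35, 0.42 and 0.60 in set 2. In the 1640 genes richest in GC (from 61.1% GC upward) the median log2 fold change with IRF4 shRNA was -0.33, with 27 genes called higher and 907 lower. In the 1640 genes poorest in GC (up to 38.7%) it was 0.060, with 236 higher and 36 lower. Trend and set cannot be told apart within these 6 libraries, so the lists and many of the genes are also given after the trend was removed from every library. This called 2859 genes (17.2%), of which 1451 (8.73%) were higher and 1408 (8.47%) lower. The counts of every gene list below are to be read beside these shares, and as deposited beside 9.4% higher and 13.5% lower. Of the 3812 genes called as deposited, 2197 (57.6%) were also called with the same sign after removal, 980 higher and 1217 lower, and 44 were called with the opposite sign. A fit that took the spread from all 12 libraries called 418 higher and 383 lower, 799 of them shared with the 6-library fit. Libraries held 31.9 to 38.2 M counts with IRF4 shRNA and 31.3 to 36.0 M counts with scramble.

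**Figure D2:**
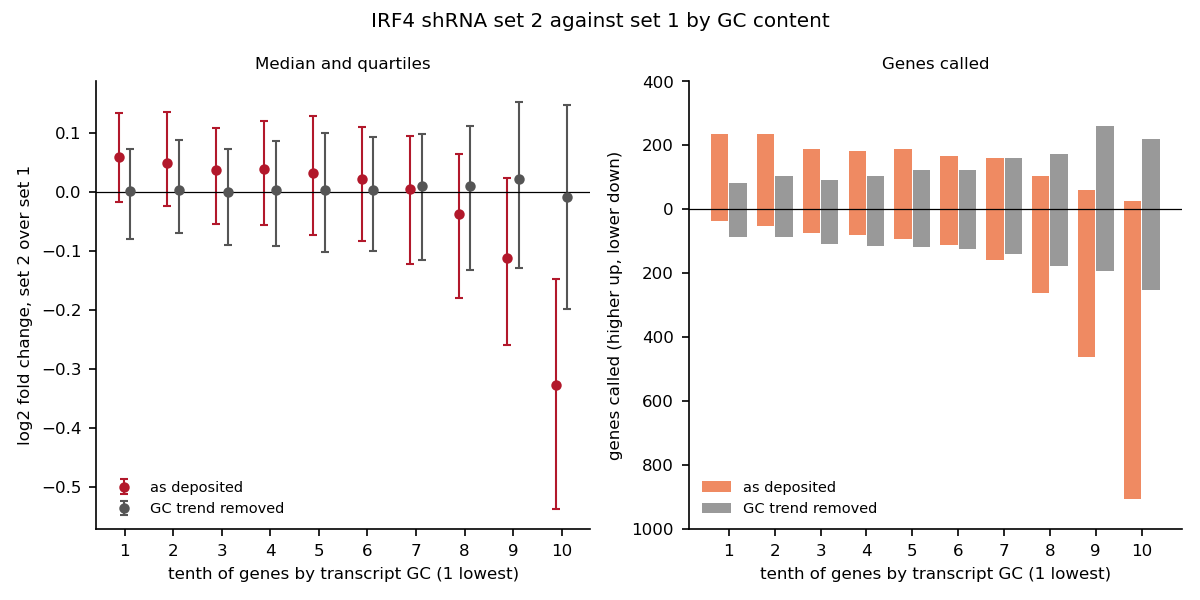
Left, median log2 fold change of set 2 over set 1 with IRF4 shRNA (points) and its quartiles (whiskers) in 10 bins of genes of about equal size ordered by transcript GC, as deposited and after removal of the GC trend. Right, genes called higher (upward bars) and lower (downward bars) in the same bins. As deposited the median falls from 0.060 to -0.33 and 907 genes are called lower in the bin richest in GC, against 252 after removal.

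GZMB and MS4A6A, which with IRF4 and IRF7 were given as markers of these libraries, rose in set 2 and stayed below the control level. GZMB, which encodes the protease granzyme B (chromosome 14, 24630954 to 24634267), was at 8.07, 8.98 and 8.72 CPM in set 1 and at 27.5, 29.1 and 29.9 CPM in set 2, against 177 to 225 CPM in the scramble libraries. The sets stood far apart by 3.35-fold, or 1.74 on the log2 scale (SE 0.066, edgeR adjusted p = 2.76e-12), and 1.75 with the GC trend removed. MS4A6A, a membrane protein of the family of CD20 (chromosome 11, 60172014 to 60184666), was at 2.76, 3.06 and 2.31 CPM in set 1 and 8.57, 7.95 and 7.60 CPM in set 2 (scramble 27.5 to 33.8 CPM). Its log2 fold change was 1.57 (SE 0.12, edgeR adjusted p = 1.18e-08), and 1.54 with the trend removed. Of 6 cytotoxic granule genes tested, GZMB and CTSC, the protease that activates granzymes, were higher and none lower, with and without the trend. CTSC was at 137, 139.8 and 131 CPM in set 1 and at 210.0, 201 and 211 CPM in set 2 (log2 fold change 0.61, SE 0.033, edgeR adjusted p = 3.04e-10). Of 5 MS4A genes tested, 2 were higher and none lower. The second was MS4A1, which encodes CD20, at 2689.9 ± 72.9 and 2947 ± 68.8 CPM (n = 3 each, log2 fold change 0.13), a call lost in the 12-library fit (edgeR adjusted p = 0.215). The scramble libraries had 1839 to 2356 CPM of MS4A1, below both sets.

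Other named rises of at least 2-fold came from weakly expressed genes. PDZD2, a protein with PDZ domains (chromosome 5, 31639131 to 32110932), was at 4.15, 3.61 and 3.60 CPM in set 1 and at 9.43, 9.30 and 8.22 CPM in set 2, with 14.8 to 20.3 CPM in the scramble libraries. This is a 2.37-fold difference (edgeR adjusted p = 4.29e-08). VASH2, a vasohibin that removes tyrosine from tubulin, was at 0.407, 0.834 and 0.675 CPM in set 1 and at 1.85, 2.52 and 1.37 CPM in set 2, also below its scramble range of 5.47 to 6.92 CPM. PLA2G2D, a secreted phospholipase, was at 1.25, 1.17 and 1.04 CPM against 2.70, 2.29 and 3.01 CPM, and here set 2 lay above all 6 scramble libraries (1.82 to 2.28 CPM). The abundant SIGLEC6, a sialic acid binding receptor, differed by less but with little spread, at 174 ± 2.73 in set 1 and 256 ± 1.60 CPM in set 2 (n = 3 each, log2 fold change 0.56, SE 0.028, edgeR adjusted p = 1.66e-10), with 639 to 728 CPM in the scramble libraries. The remaining 5 of the 10 largest rises, NME1-NME2, TGIF2-RAB5IF, BORCS8-MEF2B, RAB4B-EGLN2 and MIA-RAB4B, are readthrough loci that share exons with their component genes, so how reads were divided is uncertain. BORCS8-MEF2B went from 3.47 ± 1.40 CPM in set 1 to 16.2 ± 3.31 CPM in set 2, TGIF2-RAB5IF from 0.174 ± 0.0710 to 2.02 ± 1.01, RAB4B-EGLN2 from 1.18 ± 0.221 to 3.62 ± 0.797 and MIA-RAB4B from 0.972 ± 0.184 to 2.26 ± 0.657 CPM (n = 3 each). NME1-NME2 was at 0, 0.0309 and 0.366 CPM in set 1, of which the lowest lie under 3 counts, and at 0.994, 4.33 and 2.98 CPM in set 2. The scramble libraries spread from 3.05 to 28.3 CPM for BORCS8-MEF2B and from 0.202 to 5.92 CPM for NME1-NME2. In the 12-library fit the calls on NME1-NME2, BORCS8-MEF2B and MIA-RAB4B were lost (edgeR adjusted p = 0.0669, 0.0589 and 0.0621). NME1-NME2 also missed the threshold with robust estimation (edgeR adjusted p = 0.0605).

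Among the largest falls were genes known from neurons and neuroendocrine cells, all weakly expressed here. STMN3, a microtubule regulator of the stathmin family (chromosome 20, 63639705 to 63657682), was at 5.05, 5.12 and 4.39 CPM in set 1 and at 1.02, 1.27 and 1.12 CPM in set 2, with 0.519 to 1.14 CPM in the scramble libraries. Set 2 was thus near the control range, and the log2 fold change was -2.09 (SE 0.16, edgeR adjusted p = 1.16e-08), or -1.78 with the GC trend removed. BSN, a presynaptic scaffold protein, was at 2.61, 2.72 and 2.76 CPM against 0.426, 0.790 and 0.601 CPM. AP3B2, a neuronal adaptor subunit, was at 1.97, 1.82 and 2.14 CPM against 0.454, 0.408 and 0.273 CPM. VGF, a neuropeptide precursor, was at 3.72, 3.83 and 4.47 CPM against 1.05, 0.841 and 1.23 CPM. These 3 genes had log2 fold changes of -2.14, -2.38 and -1.95, and of -1.95, -2.41 and -1.32 with the GC trend removed. SYP, the synaptic vesicle protein synaptophysin, was at 7.49, 6.70 and 6.78 CPM in set 1 and at 2.53, 2.47 and 1.94 CPM in set 2. For SYP all 6 scramble libraries lay between the sets, and its log2 fold change was -1.60, or -1.48 with the trend removed. These neuronal names were picked out after the values were seen, and no list of neuronal genes was tested.

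The most abundant of the 10 largest falls was CYP2W1, a cytochrome P450 (chromosome 7, 983181 to 989640). It was at 71.8, 59.2 and 69.5 CPM in set 1, at 23.1, 17.8 and 19.3 CPM in set 2, and lower than in either set in all 6 scramble libraries. It was 3.34-fold lower in set 2 (log2 fold change -1.74, SE 0.077, edgeR adjusted p = 1.92e-11, and -1.25 with the trend removed). SAMD4A, an RNA binding repressor, was 3.17-fold lower (2.46 ± 0.283 to 0.776 ± 0.141 CPM) and ADAMTS7, a secreted metalloprotease, 3.08-fold lower (4.62 ± 1.08 to 1.51 ± 0.405 CPM, n = 3 each). The readthrough locus PPAN-P2RY11 and ADAT3, a subunit of the tRNA adenosine deaminase, were at 5.47 ± 1.95 and 3.53 ± 0.734 CPM in set 1 and at 0.605 ± 0.0744 and 1.11 ± 0.446 CPM in set 2. Both spread widely among the scramble libraries (0.226 to 7.83 CPM and 0.471 to 7.83 CPM), and ADAT3 did not pass in the 12-library fit (edgeR adjusted p = 0.18). With the trend removed the log2 fold changes were -1.69 for SAMD4A, -1.22 for ADAMTS7, -2.82 for PPAN-P2RY11 and -0.997 for ADAT3, against -1.67, -1.62, -3.17 and -1.68 as deposited.

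By the smallest p, 3 abundant genes were lower in set 2. PTPRCAP, which binds the CD45 phosphatase, was at 220.3, 212 and 211 CPM in set 1 and at 115, 105 and 105 CPM in set 2. MIF, a macrophage migration inhibitory factor, was at 101, 98.2 and 94.9 CPM against 46.4, 38.2 and 38.2 CPM. ARHGAP45, a GTPase activating protein, was at 307, 311 and 313 CPM against 209, 194 and 197 CPM. Their log2 fold changes of -0.99, -1.26 and -0.64 became -0.62, -0.82 and -0.23 with the GC trend removed. The 3 genes ran from 73.9 to 253 CPM, from 28.1 to 182 CPM and from 86.4 to 197 CPM among the scramble libraries, and none passed in the 12-library fit (edgeR adjusted p = 0.0764, 0.115 and 0.0766).

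Interferon genes split between the sets. IRF7, the IRF that amplifies the type I interferon response (chromosome 11, 612553 to 615983), was at 89.4, 81.0 and 89.4 CPM in set 1, at 57.8, 49.1 and 55.3 CPM in set 2 and at 10.9 to 28.0 CPM in the scramble libraries. All libraries of set 2 lay under those of set 1 and above the controls. The log2 fold change was -0.68 (SE 0.052, edgeR adjusted p = 1.23e-08). It was -0.23 with the GC trend removed (edgeR adjusted p = 0.000371), and the call was lost in the 12-library fit (edgeR adjusted p = 0.0545). Of 7 IRF genes other than IRF4 tested, IRF7 included, 4 were lower and 1 higher, and 4 and 2 with the trend removed. IRF3, the sensor-activated IRF, was at 178 ± 5.47 and 152 ± 0.539 CPM in sets 1 and 2, and IRF1, an activator induced by interferon gamma, at 21.7 ± 0.845 and 18.6 ± 0.784 CPM. IRF2, known as a counterpart of IRF1, was higher in set 2 (69.3 ± 0.537 and 77.4 ± 1.89 CPM, n = 3 each), beside 62.8 to 67.9 CPM in the scramble libraries. IRF8, a relative of IRF4 that works in germinal centre B cells, was at 103, 105 and 96.2 CPM in set 1 and at 96.8, 91.4 and 92.7 CPM in set 2, so that the ranges overlapped. Its call (log2 fold change -0.12, edgeR adjusted p = 0.0311) was lost without replicate 1 or 2 of set 1 or replicate 2 or 3 of set 2 (edgeR adjusted p = 0.0893, 0.111, 0.127 and 0.0979) and in the 12-library fit (edgeR adjusted p = 0.303). With the trend removed the log2 fold changes of IRF3, IRF1, IRF2 and IRF8 were -0.12, -0.22, 0.12 and -0.12, against -0.23, -0.22, 0.16 and -0.12 as deposited. The calls on IRF3 and IRF1 were lost in the 12-library fit (edgeR adjusted p = 0.137 and 0.11), and that on IRF1 also without replicate 3 of set 1 (edgeR adjusted p = 0.0548).

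Type I interferon response genes summed to similar levels in both sets, above the controls, and their members went both ways. Their summed level was 6913 to 7183 CPM in set 1 and 7070.0 to 7712 CPM in set 2, against 2001 to 2106 and 1872 to 2015 CPM in the scramble sets. Of 46 tested, 12 were higher and 5 lower in set 2, and 9 and 7 with the GC trend removed, with a median log2 fold change of 0.037 against 0.0036 over all genes tested. Without replicate 2 of set 1 or replicate 3 of set 2, 5 were higher, and in the 12-library fit 1 was higher and 1 lower. ISG15, a ubiquitin-like protein induced by interferon, was at 208, 181 and 199 CPM in set 1, at 142, 118 and 143 CPM in set 2 and at 7.35 to 20.5 CPM in the scramble libraries (log2 fold change -0.55, SE 0.057, edgeR adjusted p = 5.98e-07). HELZ2, a helicase, was at 145, 125 and 137 CPM against 88.4, 80.8 and 90.0 CPM. With the trend removed ISG15 and HELZ2 kept the sign at -0.25 and -0.19, and neither passed in the 12-library fit (edgeR adjusted p = 0.0754 and 0.0592). LGALS3BP, a secreted galectin ligand, was also lower (25.9 ± 0.895 to 20.1 ± 0.810 CPM), while MX2, an antiviral GTPase, was higher (165 ± 2.30 to 188 ± 2.75 CPM, n = 3 each). The scramble libraries had 0.894 to 1.26 CPM for LGALS3BP and 137 to 153 CPM for MX2. Set 2 was nearer to them for LGALS3BP and farther for MX2. LGALS3BP went from -0.37 on the log2 scale to -0.20 with the trend removed, and MX2 from 0.19 to 0.17.

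The signalling layer above these genes was likewise mixed. Of 14 interferon ligand, receptor and signalling genes tested, 5 were higher and 3 lower, and 5 and 2 with the trend removed. Over all genes tested 9.4% were higher and 13.5% lower. STAT2, which carries the type I signal to the nucleus, was at 229.8, 213 and 233 CPM in set 1 and at 278, 287 and 296 CPM in set 2 (log2 fold change 0.35, SE 0.035, edgeR adjusted p = 4.04e-07, and 0.33 with the trend removed). The scramble libraries had 181 to 204 CPM of STAT2, so the milder set was farther from them. The kinase gene JAK2 was at 72.3 ± 3.17 and 86.3 ± 3.30 CPM (n = 3 each). SOCS1, the feedback inhibitor of these kinases, was lower in set 2, at 12.7, 11.6 and 12.8 CPM against 7.47, 6.42 and 6.80 CPM. Its log2 fold change of -0.85 became -0.29 with the trend removed. JAK2 and SOCS1 did not pass in the 12-library fit (edgeR adjusted p = 0.0713 and 0.0552). Of 14 nucleic acid sensor genes, which detect foreign RNA or DNA, 1 was higher and 1 lower, and none with the trend removed.

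Since IRF proteins bind repeats of GAAA, the promoters of the genes named here were searched for 2 GAAA cores with 2 bases between them (GAAANNGAAA) and for the composite of an ETS and an IRF core (GGAANNGAAA), on both strands, in 300 bases from 250 before to 50 after the start (RefSeq, GRCh38.p14). Over 27305 promoters of this length 3.65% held the first and 2.92% the second. Each gene symbol had 1 promoter, that at the lowest coordinate where several were listed. On the minus strand this may be an internal start. Among 72 named genes whose promoter was matched, 5 held the first and 1 the second. The stretches upstream of the start are shown for genes lower in set 2 (ISG15, LGALS3BP and SOCS1) and higher in set 2 (FCRLA and BMF). Of the 92 named genes 89 were called, so a set difference does not mark out the genes with a match. The stretches are written along the gene's strand with the matches in capitals. The ISG15 stretch holds 2 overlapping matches, and the BMF match reads on the opposite strand. A match is a description of the letters and not a binding site.
ISG15 (chr1:1013369-1013414, plus strand): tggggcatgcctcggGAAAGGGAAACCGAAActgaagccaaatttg
LGALS3BP (chr17:78979957-78979996, minus strand): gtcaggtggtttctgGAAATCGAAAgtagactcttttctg
SOCS1 (chr16:11256293-11256332, minus strand): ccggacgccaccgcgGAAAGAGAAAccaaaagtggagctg
FCRLA (chr1:161707122-161707161, plus strand): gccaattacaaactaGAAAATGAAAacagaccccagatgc
BMF (chr15:40106967-40107003, minus strand): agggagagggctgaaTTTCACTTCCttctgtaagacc
The fifth gene with the first motif, BBC3, had its matches after the start. No match lay in this window of GZMB or MS4A6A.

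Genes of plasma cells and protein secretion were more often higher than lower in set 2. Of 25 tested, 12 were higher and 2 lower, and 10 and 2 with the trend removed, with a median log2 fold change of 0.20. Of all genes tested 9.4% were higher and 13.5% lower, and in the 12-library fit 8 list members were higher and none lower. PRDM1, which encodes BLIMP1, was at 201, 192 and 192 CPM in set 1 and at 236, 231 and 233 CPM in set 2, beside 228 to 255 CPM in the scramble libraries. The sets did not overlap (log2 fold change 0.25, SE 0.030, edgeR adjusted p = 2.49e-06, and 0.22 with the trend removed). XBP1, the transcription factor of the secretory apparatus, was at 36.0, 37.5 and 37.9 CPM against 46.2, 43.5 and 48.4 CPM. ERN1, the sensor nuclease that splices XBP1, was at 23.7, 22.8 and 23.2 CPM against 34.5, 31.4 and 37.6 CPM and in neither set near its scramble range of 105 to 121 CPM. Its log2 fold change was 0.57 (SE 0.060, edgeR adjusted p = 8.23e-07). CREB3L2, a transcription factor of the secretory pathway, was 1.32-fold and SLAMF7, a plasma cell surface receptor, 1.30-fold higher. In the unfolded protein response, which expands the folding capacity of the endoplasmic reticulum, 10 of 23 members were higher and none lower, and 8 and none with the trend removed. Without replicate 1 of set 1, 6 were higher, and in the 12-library fit 5. HERPUD1, EDEM1 and SEL1L, which act in degradation of misfolded proteins, had log2 fold changes of 0.34, 0.27 and 0.23, and the chaperone HSP90B1 of 0.23. SEL1L, for example, was at 139, 137 and 141 CPM in set 1 and at 162, 161 and 167 CPM in set 2, with 315 to 377 CPM in the scramble libraries.

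Classifier genes of ABC lymphoma, which tell it from germinal centre type tumours, were mostly higher in set 2. Of 24 tested without IRF4, 15 were higher and 3 lower in set 2, and 16 and 1 with the trend removed, with a median log2 fold change of 0.17. In the 12-library fit 13 were higher and none lower. ENTPD1, the ectonucleotidase CD39, was at 198, 210.2 and 209 CPM in set 1 and at 274, 288 and 289 CPM in set 2. PIM2, a survival kinase, was at 309, 298 and 302 CPM against 427, 395 and 400.0 CPM, with 633 to 689.7 CPM in the scramble libraries. The cytokine gene IL16 was at 124, 128 and 118 CPM against 158, 173 and 177 CPM, and there set 2 lay above the scramble range of 134 to 146 CPM. These 3 genes had log2 fold changes of 0.46, 0.42 and 0.46 (edgeR adjusted p = 5.55e-09, 1.12e-08 and 6.36e-08).

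NF-kB genes and chemokine genes also had more members higher than lower, beside 9.4% higher and 13.5% lower over all genes tested. Of 27 NF-kB subunits and targets, 10 were higher and 4 lower, and 14 and 2 with the trend removed, and 6 and 1 in the 12-library fit. TNFAIP3, the ubiquitin-editing inhibitor A20, was at 104, 102 and 99.6 CPM in set 1 and at 131, 122 and 127 CPM in set 2. BIRC3, an inhibitor of apoptosis, was 1.27-fold higher, while NFKBIB, an inhibitor subunit, was lower (40.3 ± 0.449 to 31.7 ± 0.482 CPM, n = 3 each). NFKBIB had a log2 fold change of -0.35 as deposited and -0.18 with the trend removed, and was not called in the 12-library fit (edgeR adjusted p = 0.193). Of 29 chemokines, cytokines and their receptors 9 were higher and 6 lower, and 9 and 1 with the trend removed. Without replicate 2 of set 2 only 3 were lower, and in the 12-library fit 4 were higher and none lower. CCL22, a chemokine that attracts regulatory T cells (chromosome 16, 57358783 to 57366189), was at 66.1, 61.5 and 63.6 CPM in set 1, at 114, 101 and 112 CPM in set 2 and at 11.8 to 13.8 CPM in the scramble libraries. The milder set was thus the one farther from the controls (log2 fold change 0.77, SE 0.044, edgeR adjusted p = 5.03e-10). CCR7, the lymph node homing receptor, showed the same order, at 155, 146 and 148 CPM in set 1, 212, 201 and 206 CPM in set 2 and 103 to 111 CPM in the scramble libraries. IL10RA, a subunit of the IL-10 receptor, was 1.18-fold higher in set 2.

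**Figure D3:**
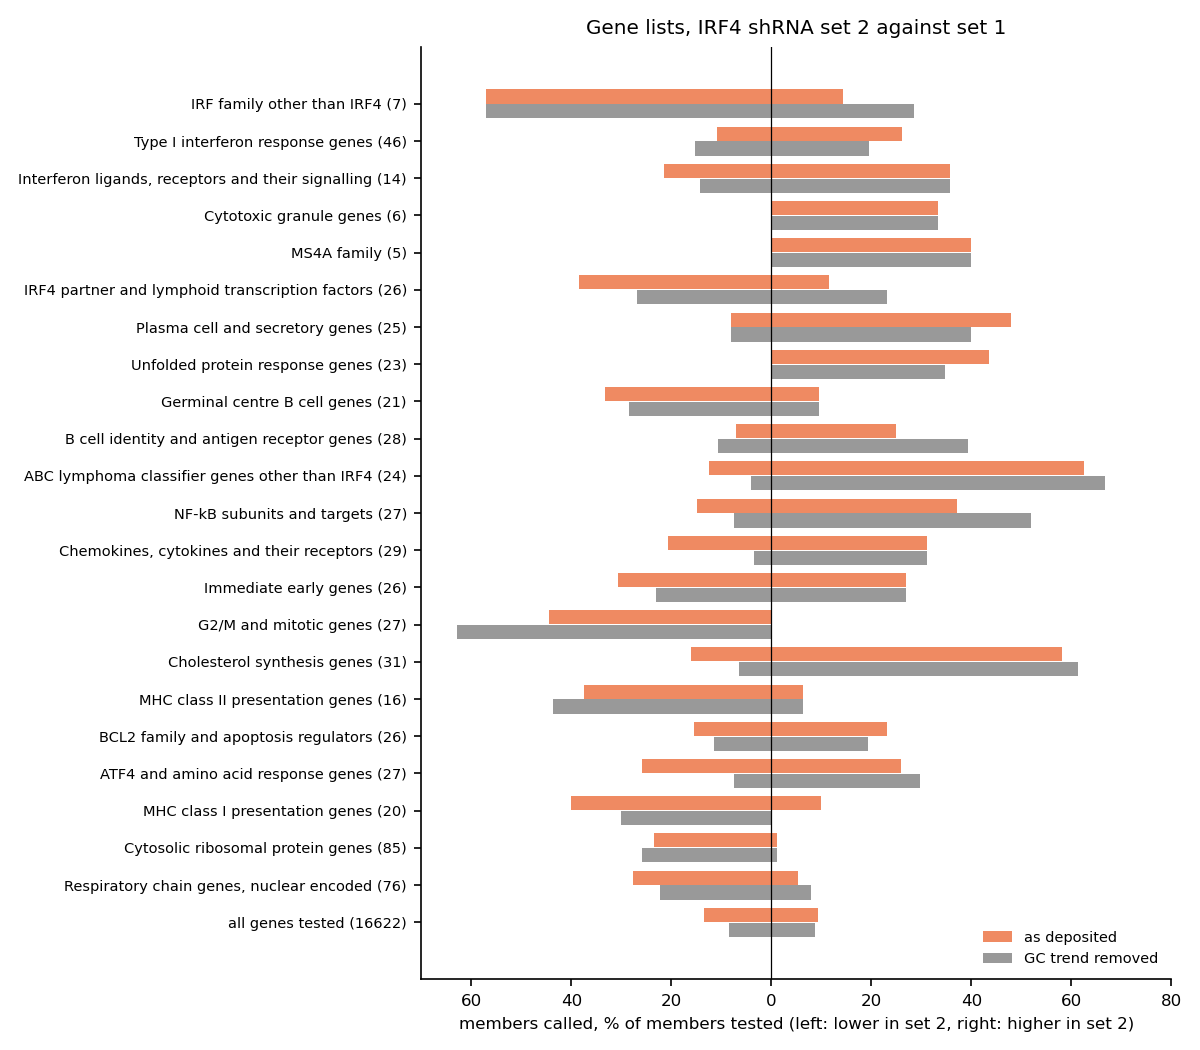
Share of tested members called higher (right) and lower (left) in IRF4 shRNA set 2 against set 1, in percent, for lists described in the text (members tested in brackets), as deposited and with the GC trend removed. The ABC classifier list reaches 15 of 24 members to the right and the mitotic list 12 of 27 to the left, and the last row gives all genes tested.

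Germinal centre B cell genes, the programme opposed to plasma cell differentiation, were more often lower in set 2, 7 of 21 against 2 higher, and 6 and 2 with the trend removed. Over all genes tested 13.5% were lower and 9.4% higher. The 12-library fit had 3 lower and none higher. LMO2, a transcriptional adaptor, was at 126, 135 and 127 CPM in set 1, at 93.2, 92.9 and 90.8 CPM in set 2 and at 26.6 to 30.3 CPM in the scramble libraries. ITPKB, an inositol phosphate kinase, was at 102, 103 and 96.9 CPM against 75.7, 75.7 and 75.1 CPM, and RGS13, which dampens chemokine receptor signals, at 47.5, 46.7 and 47.3 CPM against 37.4, 39.6 and 35.7 CPM. The log2 fold changes were -0.49, -0.42 and -0.33 (edgeR adjusted p = 6.05e-09, 3.73e-08 and 2.03e-05), and each kept its call with the trend removed. BCL6, the master repressor of this programme, was at 54.9 ± 1.63 CPM in set 1 and at 50.2 ± 1.57 CPM in set 2 (n = 3 each). That call was at the edge (log2 fold change -0.13, edgeR adjusted p = 0.028). It was lost with DESeq2 (adjusted p = 0.0519), in the 12-library fit (edgeR adjusted p = 0.372) and without replicate 1 or 2 of set 1 or replicate 2 or 3 of set 2 (edgeR adjusted p = 0.0745, 0.0829, 0.131 and 0.0649). MEF2B, which overlaps the readthrough locus BORCS8-MEF2B, was lower as deposited (-0.46) but at -0.026 with the trend removed (edgeR adjusted p = 0.613), and at an adjusted p of 0.168 in the 12-library edgeR fit.

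Of 28 B cell identity and antigen receptor genes 7 were higher and 2 lower, and 11 and 3 with the trend removed. The shares over all genes tested were 9.4% and 13.5%, and 8.73% and 8.47% with the trend removed. FCRLA, an intracellular Fc receptor-like protein of B cells, was at 231, 233 and 224 CPM in set 1 and at 306, 295 and 300.1 CPM in set 2. CD180, a Toll-like receptor homologue, and FCRL3, an inhibitory receptor, were 1.21-fold and 1.15-fold higher. The scramble libraries had 95.0 to 110 CPM for CD180 and 382 to 449 CPM for FCRL3. For both genes set 2 was farther from them (217 and 769 CPM against 179 and 667 CPM in set 1). For FCRLA the scramble libraries had 333 to 387 CPM, and set 2 was the nearer. The B cell identity factor PAX5 had 1204, 1216 and 1164 CPM in set 1 and 1197, 1184 and 1198 CPM in set 2, so that the sets overlapped (log2 fold change -0.0041, SE 0.026).

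Among the transcription factors that bind with IRF4 or act beside it, more members were lower than higher as deposited. The same held over all genes tested (9.4% higher and 13.5% lower). Of 26 tested 3 were higher and 10 lower, and 6 and 7 with the trend removed. In the 12-library fit 3 were higher and 2 lower. JUN, an AP-1 subunit, was at 75.4, 72.3 and 68.8 CPM in set 1, at 44.7, 40.8 and 39.5 CPM in set 2 and at 15.1 to 32.1 CPM in the scramble libraries. JUNB, its relative, was at 35.7, 32.4 and 34.3 CPM against 19.1, 14.2 and 16.6 CPM, and its scramble libraries ran from 5.11 to 21.8 CPM. For both genes every library of set 2 lay under set 1. The log2 fold change was -0.80 for JUN (SE 0.048, edgeR adjusted p = 8.86e-10) and -0.74 with the trend removed, and -1.04 and -0.68 for JUNB. SPI1, the ETS partner PU.1, was at 48.0, 46.0 and 46.7 CPM against 31.3, 29.1 and 27.8 CPM, with 8.63 to 15.7 CPM in the scramble libraries, and went from -0.68 to -0.30 with the trend removed. NFATC1, a calcium-regulated factor, was 1.36-fold lower. JUNB and NFATC1 did not pass in the 12-library fit (edgeR adjusted p = 0.084 and 0.109).

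Other regulators differed little. IKZF3, the lymphoid factor Aiolos, was higher in set 2 (334 ± 5.76 to 404 ± 16.7 CPM, log2 fold change 0.27), while its relative IKZF1 was at 598 ± 9.88 and 617 ± 9.67 CPM (edgeR adjusted p = 0.286). SPIB, the ETS partner of IRF4 in ABC cells, was at 2533, 2391 and 2325 CPM in set 1 and 2607, 2351 and 2338 CPM in set 2 and did not pass (log2 fold change 0.0079, SE 0.038, edgeR adjusted p = 0.917). BATF, the AP-1 partner of IRF4, was lower as deposited (-0.24), but its adjusted p by edgeR was 0.255 with the trend removed and 0.256 in the 12-library fit. MYC was at 148, 138 and 131 CPM in set 1 and at 138, 122 and 120.0 CPM in set 2, so that the ranges overlapped. Its call (log2 fold change -0.14, edgeR adjusted p = 0.0423) was lost with the trend removed (0.0702), by DESeq2 (adjusted p = 0.243), with robust estimation (0.166), without replicate 1 or 2 of set 1 or replicate 2 or 3 of set 2 (0.203, 0.0598, 0.17 and 0.199) and in the 12-library fit (0.517). Of 26 immediate early genes, which respond within minutes to signals, 7 were higher and 8 lower, and 7 and 6 with the trend removed. Without replicate 1 of set 1 or replicate 2 of set 2, 5 were lower, and in the 12-library fit 4 were higher and 1 lower. JUN and JUNB were lower, while the phosphatase gene DUSP5 (log2 fold change 0.45) and the nuclear receptor gene NR4A3 (0.50) were higher. NR4A3 was at 65.1, 59.0 and 57.8 CPM in set 1, at 91.0, 81.0 and 84.7 CPM in set 2 and at 8.68 to 10.5 CPM in the scramble libraries.

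**Figure D4:**
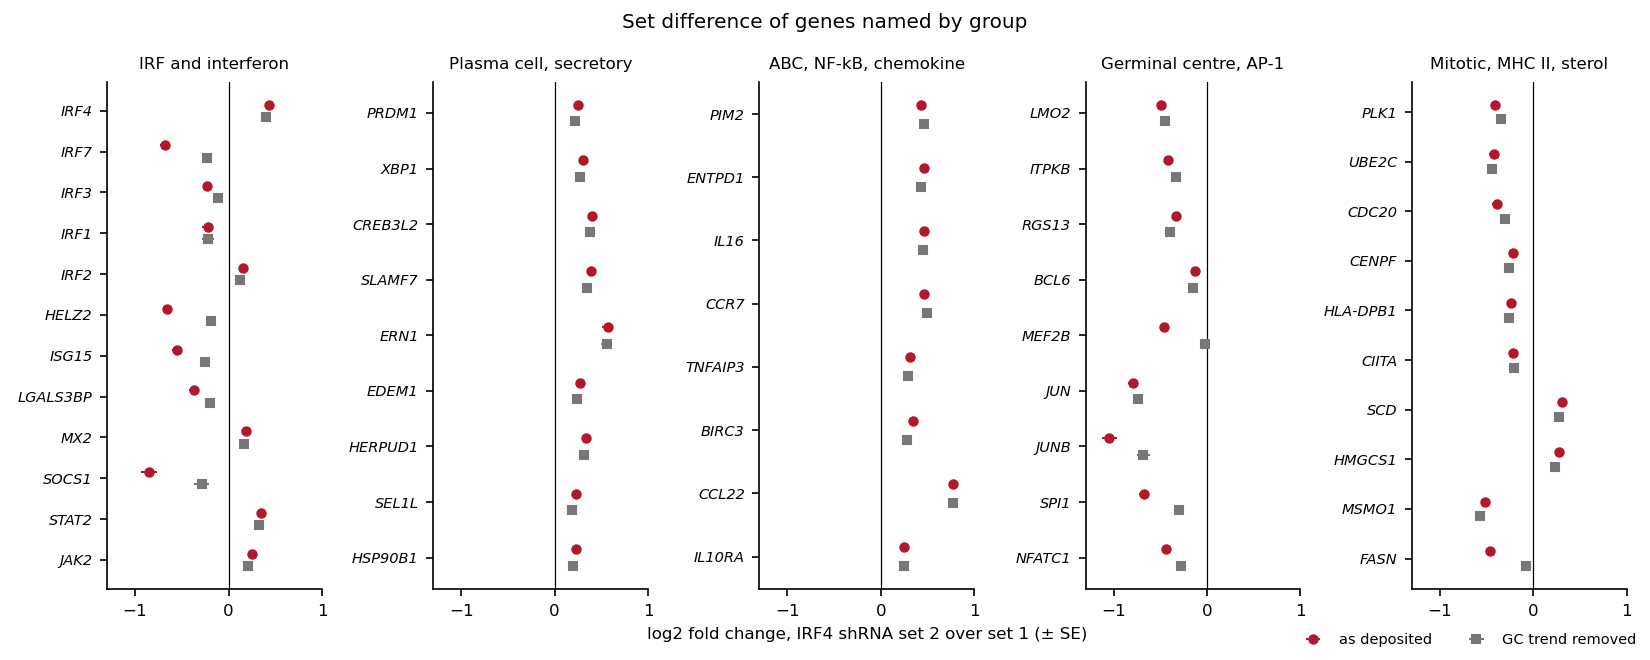
Log2 fold change of IRF4 shRNA set 2 over set 1 (horizontal axes, ± SE) for genes named in the text, in 5 panels by group, as deposited (circles) and with the GC trend removed (squares). The genes shown in the secretory panel and in the panel of ABC, NF-kB and chemokine genes lie right of 0 in both. Members of these lists that were called lower, such as NFKBIB, are not drawn in these panels. JUNB moves from -1.04 to -0.68, and MEF2B and FASN move close to 0 with the trend removed.

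Where mitotic genes passed the test they were lower in the milder set. Of 27 G2/M genes 12 were lower and none higher, and 17 and none with the GC trend removed, with a median log2 fold change of -0.14 against 0.0036 over all genes tested. By the 12-library fit 4 were lower. PLK1, a mitotic kinase, was at 57.6, 60.1 and 62.9 CPM in set 1, at 45.9, 46.1 and 43.8 CPM in set 2 and at 65.8 to 83.2 CPM in the scramble libraries. UBE2C, the ubiquitin conjugating enzyme of the anaphase promoting complex, was at 25.3, 24.7 and 24.3 CPM against 18.5, 18.5 and 18.4 CPM, with 23.9 to 31.2 CPM in the scramble libraries. PLK1 lay below all controls in both sets, and UBE2C in set 2 only. CDC20, an activator of the same complex, had a log2 fold change of -0.39 and CENPF, a kinetochore protein, of -0.22, the latter not called in the 12-library fit (edgeR adjusted p = 0.12). DNA replication and S phase genes had 2 of 30 members higher and 5 lower, and 2 and 4 with the trend removed, beside 9.4% higher and 13.5% lower over all genes. Replication-dependent histone genes, whose transcripts mostly lack a poly(A) tail and whose copies resemble each other, had 1 higher and 15 lower of 43, and 1 and 13 with the trend removed, but none higher and 1 lower in the 12-library fit.

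Most called genes of cholesterol and fatty acid synthesis were higher in set 2, 18 of 31 against 5 lower, and 19 and 2 with the trend removed. In the 12-library fit 9 were higher and 1 lower. SCD, the stearoyl-CoA desaturase, was at 694, 700.0 and 699.8 CPM in set 1 and at 875, 856 and 856 CPM in set 2, beside 807 to 942 CPM in the scramble libraries. HMGCS1, which makes the precursor of mevalonate, was 1.21-fold higher, at 303, 303 and 303 CPM against 384, 357 and 362 CPM. The exception with the smallest p was MSMO1, a sterol demethylase, at 76.7, 74.6 and 75.4 CPM in set 1 and 56.0, 51.5 and 51.5 CPM in set 2, or -0.51 on the log2 scale (SE 0.040, edgeR adjusted p = 1.7e-08). Its scramble libraries had 74.2 to 89.0 CPM, so set 2 lay below them. FASN, fatty acid synthase, was lower as deposited (-0.46) but not with the trend removed (-0.073, edgeR adjusted p = 0.175) or in the 12-library fit (0.206).

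Antigen presentation genes were more often lower than higher in the 6-library fit. So were all genes tested, with 9.4% higher and 13.5% lower, or 8.73% and 8.47% with the trend removed. In the MHC class II list 6 of 16 were lower and 1 higher, and 7 and 1 with the trend removed, and 3 and none in the 12-library fit. CIITA, the transactivator of the class II genes, was at 735, 745 and 739 CPM in set 1 and at 616, 656 and 646 CPM in set 2 (log2 fold change -0.21, SE 0.028, edgeR adjusted p = 1.14e-05). HLA-DPB1, HLA-DRB5 and HLA-DQB1, class II beta chains with close copies that can share reads, had -0.24, -0.28 and -0.42, the last not called in the 12-library fit (edgeR adjusted p = 0.0658). Of 20 MHC class I presentation genes 8 were lower and 2 higher, and 6 and 0 with the trend removed, and none in either direction in the 12-library fit. In the BCL2 family and apoptosis regulators 6 of 26 were higher and 4 lower, and 5 and 3 with the trend removed. Without replicate 2 of set 1 or replicate 1 of set 2, 3 were higher, as in the 12-library fit. BCL2L11, which encodes the death activator BIM, was at 757, 742 and 754 CPM in set 1 and at 918, 899.8 and 880.0 CPM in set 2, with 903 to 971 CPM in the scramble libraries. BMF, a related activator, was 1.22-fold higher. BBC3, the p53-induced activator PUMA, was at 68.1, 66.2 and 65.7 CPM against 41.9, 32.3 and 34.3 CPM, and went from -0.89 to -0.30 with the trend removed and to an edgeR adjusted p of 0.0888 in the 12-library fit.

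The remaining lists, on metabolism, translation, stress and controls, are given by their counts, to be read beside 9.4% higher and 13.5% lower over all genes tested (8.73% and 8.47% with the trend removed). Cytosolic ribosomal protein genes, which have many pseudogene copies, had 1 higher and 20 lower of 85, nuclear-encoded respiratory chain genes 4 and 21 of 76, and mitochondrially encoded genes 2 and 2 of 13. With the trend removed the first 2 lists had 1 and 22, and 6 and 17. ATF4 and amino acid response genes went from 7 higher and 7 lower of 27 to 8 and 2 with the trend removed, and MYC and ribosome biogenesis genes from 5 and 5 of 29 to 7 and 2. Glycolysis and hypoxia genes had 3 higher and 7 lower of 31, p53 targets 3 and 6 of 22, and heat shock genes 1 and 4 of 20. Removing the trend left 2 and 6, 2 and 4, and 1 and 2. The TXNIP family had 1 and 2 of 5, nuclear retained RNAs 2 and 2 of 7, and chromosome 19 zinc finger genes 14 and 22 of 129. These 3 lists had 0 and 1, 1 and 2, and 10 and 15 with the trend removed. By the 12-library fit none of these lists had more than 3 members called in a direction. Among genes of the RNA interference machinery, through which shRNAs act, 1 was higher and 1 lower of 13, and 0 and 2 with the trend removed.

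Markers of other cell types were mostly low in both sets. The 6 B cell markers summed to 6492 to 6714 CPM in set 1, 6647 to 6846 CPM in set 2, and 4739.8 to 5057 and 4557 to 4921 CPM in the scramble sets. Of 6 NK cell markers 4 were at or under 3 counts over each set, and their sum stayed under 1 CPM in every library. T cell markers summed to 28.2 to 30.5 and 32.0 to 34.0 CPM, and myeloid markers to 29.9 to 34.4 and 39.4 to 42.6 CPM. Of these, 1 of 6 T cell markers (CD5) and 1 of 2 myeloid markers tested (CD68) were called higher and none lower, and 1 of 8 T cell and 2 of 7 myeloid markers were at or under 3 counts over each set. Fibroblast and epithelial markers summed to 31.7 to 33.9 and 38.9 to 41.6 CPM, with 1 of 5 tested higher (the adhesion molecule gene CDH1) and 2 lower (DCN and PDGFRB). Plasmacytoid dendritic cell markers, a list that includes GZMB, summed to 622 to 633 CPM in set 1 and to 719 to 739.5 CPM in set 2, with 3 of 6 higher and 1 lower, and the sum was almost all of TCF4, which B cells also express. Their part in the results was not tested.

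The set difference with IRF4 shRNA was compared with that in scramble by the interaction of set and shRNA over all 12 libraries. The labels do not say that the number means the same with both shRNAs. The interaction therefore cannot show that a difference is particular to IRF4 shRNA. The interaction passed in 2248 of 17261 genes (13%), 869 with a higher (5.03%) and 1379 with a lower (7.99%) set difference under IRF4 shRNA. It passed for IRF4 (0.46, edgeR adjusted p = 0.00106), for GZMB (1.60, edgeR adjusted p = 1.54e-06) and for MS4A6A (1.68, edgeR adjusted p = 8.22e-05). Scramble set differences of these 3 genes were -0.018, 0.15 and -0.11 on the log2 scale. For MIF, PTPRCAP and IRF7 the scramble difference had the opposite sign (1.53, 1.06 and 0.77) and the interaction was -2.78, -2.04 and -1.45. Across genes the scramble set difference followed GC in the opposite direction to that of IRF4 shRNA (Spearman's rank correlation 0.59 against -0.37). The count turned on single libraries. It was 5244 without scramble set 2 replicate 1, and 723 to 1357 without any 1 of the other libraries except scramble set 1 replicate 1 (3079). With the GC trend removed it was 1394.

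**Figure D5:**
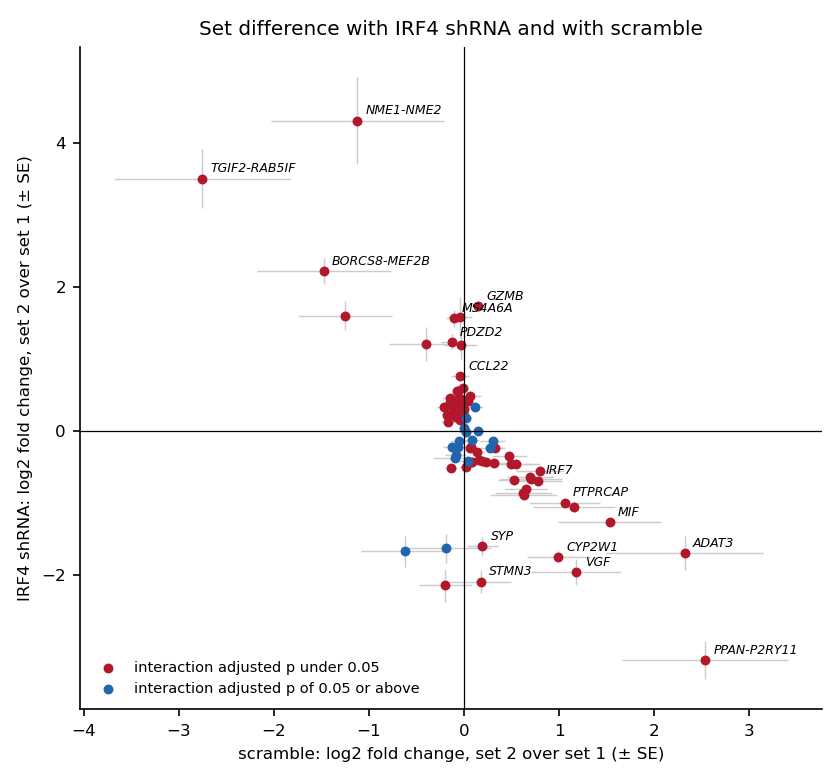
Log2 fold change of set 2 over set 1 with scramble shRNA (horizontal axis) and with IRF4 shRNA (vertical axis), both ± SE, for the named genes tested in both, coloured by the adjusted p of the interaction. GZMB, MS4A6A, PDZD2 and CCL22 lie near 0 on the scramble axis, while MIF, PTPRCAP, ADAT3 and PPAN-P2RY11 lie to its right and TGIF2-RAB5IF and BORCS8-MEF2B to its left, with the opposite sign.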

How the data were processed

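The submitters' processing notes name hg38, STAR and HTSeq. The authors deposited 1 table of estimated counts for 26318 genes in 12 libraries, not normalized. Of its values 66.6% were whole at a tolerance of 1e-06. The step that gave fractions, the annotation and the use of strand are not given in the sources used here. A cell line field carried a number that rose with the sample, while every title gave TMD8. Ends were taken 1 base before the deposited stop.

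Estimated counts were rounded and fitted with edgeR 4.0.16 in R 4.3.3 (quasi-likelihood without robust estimation, TMM, filterByExpr with a minimum count of 10), with Benjamini-Hochberg adjusted p under 0.05 called. The 6 IRF4 shRNA libraries, the 6 scramble libraries and the interaction over 12 were fitted separately. Gene levels are CPM. For GC removal, a lowess (span 0.3) of each library's log2 CPM deviation (prior count 2) on the GC of the longest GENCODE 29 transcript was entered as an offset. GC was known for 98.6% of genes tested.

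The comparison, 40 gene lists and 4 marker genes were chosen with earlier results of these data known. Besides the markers, named genes are the 10 largest rises and 10 largest falls called with and without the GC trend with sets that do not overlap and a mean over the 6 libraries of 1 CPM or more, the 6 with the smallest p, up to 4 members with the smallest p in each of 18 lists, and 10 regulators. Genes without a symbol, pseudogenes and sex-linked markers were skipped, and some items are not reported here. Each library was counted as 1 sample. No libraries of a set agreed within sampling noise (2.73 to 31.9 as chi-square over its degrees of freedom), which does not show that they are separate cultures. A floor of 3 counts is 0.0786 to 0.0959 CPM, counting error only. Scripts were tested on simulated data. Alternatives were DESeq2 1.42.0, other scaling, filters and robust estimation, a replicate block, the spread of 12 libraries, and each library left out.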

Additional observations from a re-analysis of the deposited data

Results flagged for a closer look

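The set difference with IRF4 shRNA differed from that with scramble by the test of the interaction (edgeR adjusted p under 0.05) in 2248 of 17261 genes (13%). Of the 92 named genes 76 passed. Most of the 92 were chosen for their set difference with IRF4 shRNA, which is itself a part of the interaction. How many of them passed, and with which sign, therefore follows largely from that choice. Values are the log2 set difference with IRF4 shRNA minus that with scramble, as deposited. The 2 set differences followed GC in opposite directions, and the trend was not removed from these values. With the trend removed 767 genes had a higher and 627 a lower set difference, against 869 and 1379 as deposited. In the IRF family and interferon genes the interaction was 0.46 for IRF4, -1.45 for IRF7, -0.56 for IRF3, 0.20 for IRF2, -1.35 for HELZ2, -1.34 for ISG15, 0.39 for STAT2, 0.37 for JAK2 and -1.47 for SOCS1. Among cytotoxic, MS4A and other genes higher in set 2 the interaction was 1.60 for GZMB, 0.62 for CTSC, 1.68 for MS4A6A, 0.30 for MS4A1, 1.63 for VASH2, 1.38 for PDZD2, 1.24 for PLA2G2D and 0.63 for SIGLEC6. At the readthrough loci the interaction was 5.44 for NME1-NME2, 6.27 for TGIF2-RAB5IF, 3.70 for BORCS8-MEF2B, 2.87 for RAB4B-EGLN2, 1.62 for MIA-RAB4B and -5.70 for PPAN-P2RY11. Where they passed, genes named for large or clear falls had negative values, with -2.01 for AP3B2, -1.94 for BSN, -2.26 for STMN3, -3.13 for VGF, -2.73 for CYP2W1, -3.99 for ADAT3, -1.78 for SYP, -2.04 for PTPRCAP, -2.78 for MIF and -1.32 for ARHGAP45. For secretory and unfolded protein response genes the interaction was 0.55 for CREB3L2, 0.51 for SLAMF7, 0.63 for ERN1, 0.34 for PRDM1, 0.43 for XBP1, 0.32 for EDEM1, 0.42 for SEL1L and 0.35 for HSP90B1. For genes named from the ABC, NF-kB and chemokine lists the interaction was 0.61 for ENTPD1, 0.39 for PIM2, 0.50 for IL16, 0.53 for CCR7, 0.32 for TNFAIP3, 0.56 for BIRC3, -0.81 for NFKBIB, 0.82 for CCL22 and 0.26 for IL10RA. Over all tested members the interaction was called higher for 13 and lower for 0 of the ABC list. The NF-kB list had 6 higher and 5 lower, and the chemokine and cytokine list 4 higher and 4 lower.

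Germinal centre and B cell genes gave both signs, with -0.51 for LMO2, -0.49 for ITPKB, -0.95 for MEF2B, 0.45 for FCRLA, 0.29 for CD180 and 0.30 for FCRL3. Transcription factor and early genes likewise did, with -1.44 for JUN, -2.19 for JUNB, -1.19 for SPI1, -0.74 for NFATC1, 0.37 for IKZF3, 0.48 for DUSP5 and 0.44 for NR4A3. Of the named mitotic genes, PLK1 (-0.59), UBE2C (-0.65) and CDC20 (-0.54) passed and CENPF did not. Over the 27 G2/M genes the interaction was called lower for 4 and higher for 0. Lipid synthesis genes were mixed, with -0.37 for MSMO1, 0.37 for SCD, -1.001 for FASN and 0.33 for HMGCS1. For MEF2B and FASN the difference with IRF4 shRNA was itself not called with the GC trend removed (edgeR adjusted p = 0.613 and 0.175). The named antigen presentation genes that passed, all of class II, had -0.41 for HLA-DRB5, -0.30 for HLA-DPB1 and -0.28 for CIITA. Over the whole lists the interaction was called higher for 1 and lower for 3 class II members. In the class I list 2 were higher and 7 lower. Of the apoptosis genes the interaction was -1.50 for BBC3, 0.30 for BCL2L11 and 0.37 for BMF. No explanation of these differences was tested.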

How the results depend on the processing

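The IRF4 difference kept its direction and its call under all 16 alternatives. Genes called between the IRF4 shRNA sets numbered 1563 higher and 2249 lower, and 801 (418 and 383) with the spread of 12 libraries. With the GC trend removed 1408 were lower. Leaving out 1 library gave 1073 to 1350 higher and 1859 to 2127 lower. For the other 91 named genes, 1398 of 1456 values under alternatives kept direction and call. Another 51 lost the call, 27 of these in the 12-library fit, and 7, all of SPIB or PAX5, changed sign without a call in either. Most of these genes were chosen for the size or the p of their set difference with IRF4 shRNA. A high share was therefore largely built into the choice, and it does not describe all genes. Of all 3812 genes called as deposited, 2197 kept call and sign with the GC trend removed, and 799 in the 12-library fit. In the scramble libraries, leaving out 1 library gave 0 to 2307 calls. The interaction called 2248 genes, 1394 with the GC trend removed (627 lower), and 723 to 5244 when 1 library was left out (254 to 2463 higher, 436 to 2781 lower). Replicate numbers did not pair the libraries (correlation of deviations 0.0061 to 0.029 with IRF4 shRNA), and with a replicate block 1645 genes were higher and 2299 lower between the IRF4 shRNA sets, while the interaction called 63 (44 higher, 19 lower). Where causes are not named they were not tested. With 3 libraries a set, differences of weakly expressed genes rest on few counts.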
